A study of Mus musculus with 14 samples.

Results

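The 30 genes described here encode enzymes that break down amino acids in the liver or run the methionine cycle. They were taken by symbol from the deposited transcript table of a mouse hepatocyte RNA sequencing study, and each gene's level is the sum over its transcripts. All 30 were found among the table's 54446 genes, through 130 of its 137767 transcripts, and all 30 passed the filter of a mean of at least 1 rescaled TPM in every fit. By the reactions they serve, 4 act on phenylalanine and tyrosine, 4 on tryptophan, 4 on histidine, 4 on serine and glycine and 3 on glutamine and proline, 5 are transaminases, and 6 belong to the methionine cycle and transsulfuration.

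The study removed SRSF1, an RNA-binding splicing factor, from hepatocytes of C57BL/6 mice by a pair of routes, and each library was made from purified hepatocytes. At postnatal day 10 (P10) and at 1 month, knockout (HKO) animals carried the floxed allele with albumin-Cre (srsf1f/f;albcre+/-), whose promoter drives Cre in hepatocytes, and their controls carried albcre+/- without the floxed allele. There were 2 HKO and 2 control libraries at each age. In the acute model all animals were srsf1f/f and were injected at 8 weeks with AAV8 under the TBG promoter, which is active in hepatocytes. The vector carried iCre (aav-tbg-icre) in 3 acHKO libraries and GFP (aav-tbg-gfp) in 3 control libraries, and cells were taken 2 weeks later, at 10 weeks. The HKO comparisons therefore differ from their controls in the floxed allele as well as in its deletion. Whether replicates came from separate animals is not stated in the labels, so p-values measure the spread between these samples.

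The liver is the main site of amino acid breakdown. Transaminases move amino groups onto ketoacids, dedicated routes open the rings of tyrosine, tryptophan and histidine, and the freed nitrogen goes to urea while the carbon goes to glucose, ketone bodies or energy. The methionine cycle makes S-adenosylmethionine, the cell's methyl donor, and returns or drains the homocysteine that remains. Many of these enzymes are known to be switched on around birth and weaning, and several respond to glucocorticoids, glucagon and feeding.

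Levels are TPM, which are shares of a library's transcripts corrected for length. They were rescaled between libraries by median-ratio factors, so that the median gene moved by at most 0.0144 on the log2 scale in each knockout comparison and in the age comparison. Before rescaling, the median gene stood at 0.25 at P10, -0.0013 at 1 month, -0.36 in the acute comparison and -0.43 between the ages. Sequencing depth is unknown, because TPM keep none. Changes are log2 fold changes of rescaled TPM + 1 from limma, two-sided, and a gene was called with a Benjamini-Hochberg adjusted p under 0.05 over all genes tested. Each adjusted p below is limma's unless it is credited to the authors.

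Srsf1 itself was below all of its controls in each of the 7 knockout libraries. It measured 18.2 and 15.4 rescaled TPM in HKO cells and 33.6 and 35.4 in controls at P10, and 10.2 and 8.49 in HKO cells and 26.9 and 20.4 in controls at 1 month. In the acute model it measured 4.87, 7.52 and 6.08 in acHKO cells and 20.4, 30.7 and 27.4 in GFP cells. On the deposited scale Xist reached 74.7 TPM and the Y-linked genes 0.144 TPM in HKO_P10 replicate 2, while Xist was at most 0.0147 TPM in the other 13 libraries, so the HKO_P10 group mixes sexes. All 10 hepatocyte markers were present at 1 TPM or more in each group, and the summed markers of other cell types are given with each knockout comparison.

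At P10 most of these enzymes were called lower in HKO hepatocytes on the rescaled TPM. Every route from tyrosine to methionine held at least 1 of them. Of the 30 members 16 fell, against 8.12% of the 11242 genes tested that were called lower, and 2 rose, against 8.87% of all genes called higher. The median member changed by -0.64 on the log2 scale, while the median of all genes was 0.01. The 2 that rose were the alanine transaminases. On the deposited TPM 2 members were lower, 1 in the tryptophan route and 1 in serine and glycine breakdown, and 2 were higher. Of all genes 220 were lower and 1268 higher on that scale. In these bulk libraries, fewer hepatocytes in a sample and less RNA per hepatocyte cannot be told apart.

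**Figure D1:**
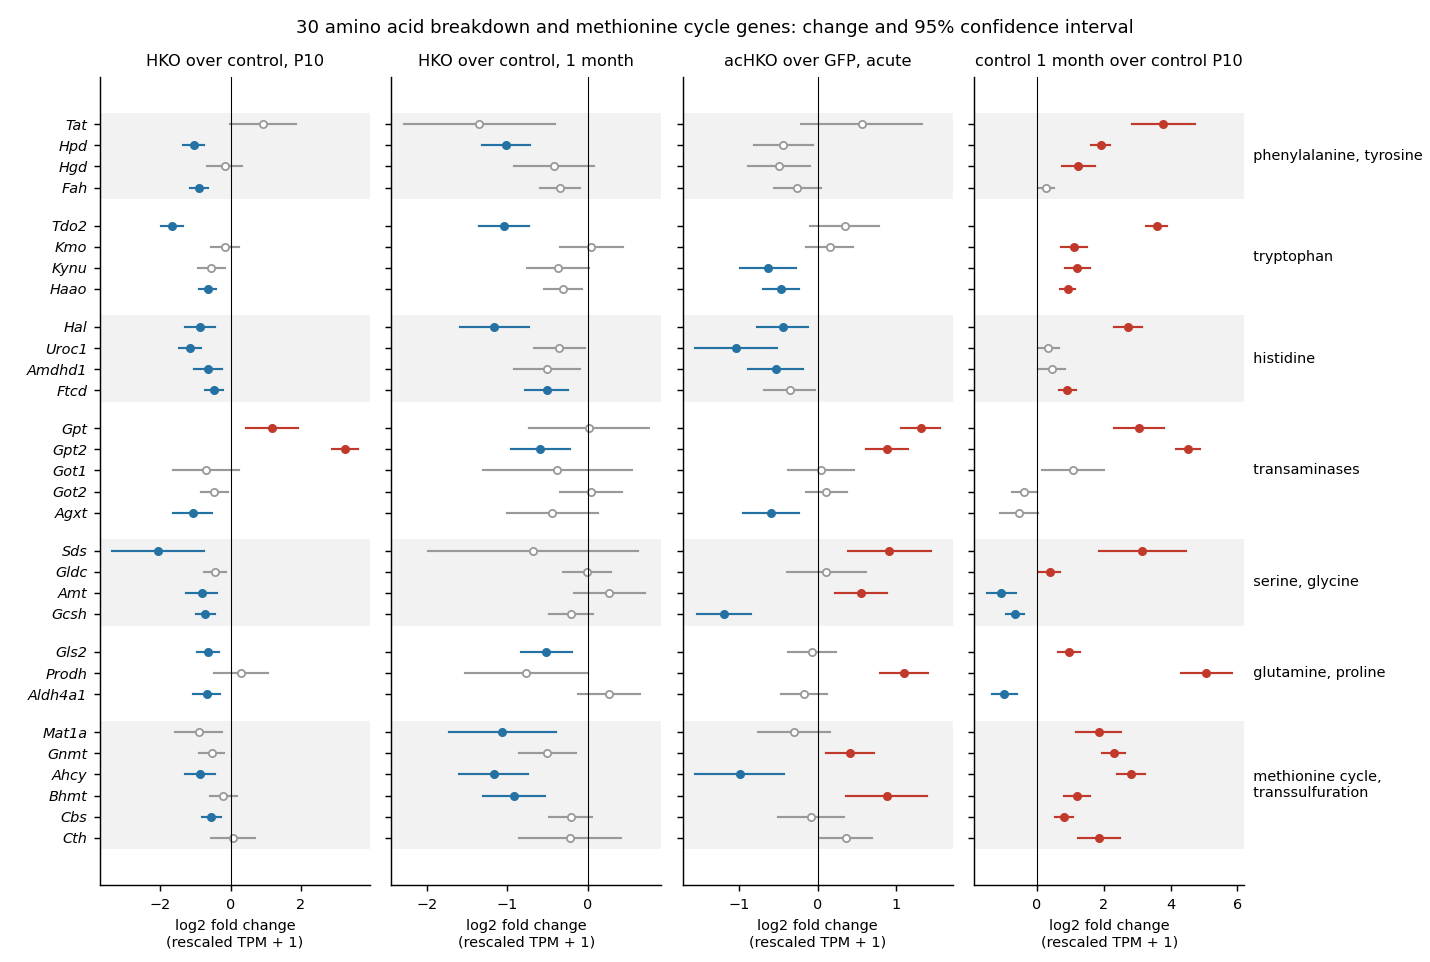
Log2 fold changes of rescaled TPM + 1 (points) with 95% confidence intervals (lines) for the 30 members, ordered by route, in 4 comparisons whose horizontal axes differ. Filled blue points are members called lower, filled red points members called higher and open grey points members not called by limma; Gpt2 stands alone at 3.24 at P10, and the age panel holds 21 red points.

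Tyrosine breakdown was lower at its middle and its end. Hpd, which turns the ketoacid of tyrosine into homogentisate, measured 220 and 235 rescaled TPM in HKO cells and 489 and 455 in controls at P10. Fah, which carries out the last step, measured 122 and 116 in HKO cells and 229 and 216 in controls. Neither gene's groups overlapped, and Hpd fell by 1.05 (SE 0.12, adjusted p = 0.00416) and Fah by 0.89 (SE 0.10, adjusted p = 0.00412). Hgd, which acts between them, had a change of -0.17 that was not called, with an interval of -0.66 to 0.33. Tat, the transaminase that opens the route, was higher by 0.91, also not called, with an interval of -0.03 to 1.85.

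In the tryptophan route Tdo2, which opens the indole ring, fell most. It measured 33.5 and 39.7 rescaled TPM in HKO cells and 128 and 108 in controls (log2 fold change -1.66, SE 0.13, adjusted p = 0.00129). Haao, a dioxygenase near the end of the route to NAD, measured 47.8 and 51.5 in HKO cells and 80.1 and 76.6 in controls (-0.65, SE 0.10, adjusted p = 0.00858). Both genes were lower in each HKO library than in each control. Kynu, the kynureninase (-0.55), and Kmo, the kynurenine hydroxylase (-0.16), were not called.

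All 4 enzymes of histidine breakdown fell at P10. Uroc1, the urocanase, measured 42.2 and 33.3 rescaled TPM in HKO cells and 86.5 and 82.8 in controls (-1.15, SE 0.13, adjusted p = 0.00405). Hal, the ammonia lyase that opens the route, fell by 0.88, Amdhd1, the imidazolonepropionase, by 0.64, and Ftcd, which hands the last carbon to folate, by 0.47. The summed level of the 4 genes was 156 ± 11.5 in HKO cells and 265 ± 16.2 rescaled TPM in controls (SD, n = 2 each), so the histidine route as a whole was lower in each HKO library.

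The transaminases did not move together. Gpt2, the mitochondrial alanine transaminase, measured 56.4 and 75.4 rescaled TPM in HKO cells and 6.08 and 5.98 in controls. This was a 9.43-fold difference on the scale of rescaled TPM + 1 (log2 fold change 3.24, SE 0.15, adjusted p = 0.000175), the largest of any member at P10 in either direction. Gpt, the cytosolic form, averaged 32.2 ± 16.2 in HKO cells and 12.9 ± 1.29 in controls (SD, n = 2 each) and also rose (1.17, SE 0.31, adjusted p = 0.0469). Agxt, which clears glyoxylate with alanine, fell by 1.08, and the aspartate transaminases Got1 (-0.70, interval -1.62 to 0.23) and Got2 (-0.47) were not called.

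Serine and glycine breakdown was lower for 3 of 4 genes. Sds, the serine dehydratase, measured 3.70 and 16.1 rescaled TPM in HKO cells and 35.0 and 37.4 in controls (-2.05, SE 0.54, adjusted p = 0.0463), and the HKO libraries differed from each other by more than the controls did. Of the glycine cleavage system, the aminomethyltransferase Amt measured 24.8 and 18.6 in HKO cells and 39.7 and 37.9 in controls (-0.82, SE 0.18, adjusted p = 0.0286). Its lipoyl carrier Gcsh fell by 0.72, and the glycine decarboxylase Gldc (-0.44) was not called. Among the glutamine and proline genes the liver glutaminase Gls2 fell by 0.65 and Aldh4a1, which completes proline breakdown, by 0.68, while Prodh, which starts it, was at or below 2.06 rescaled TPM in all P10 libraries (0.29, not called).

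In the methionine cycle Ahcy, which hydrolyses S-adenosylhomocysteine, fell by 0.86, and Cbs, which commits homocysteine to transsulfuration, fell by 0.55. Mat1a, which makes S-adenosylmethionine in adult liver, had a change of -0.90 that missed the threshold (adjusted p = 0.0712). Gnmt, which spends S-adenosylmethionine on glycine, had -0.53, Bhmt, which remethylates homocysteine with betaine, -0.20, and Cth, the last transsulfuration enzyme, 0.07 with an interval of -0.56 to 0.70. None of these 4 was called.

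The calls at P10 depended on the scaling and on single libraries. On the deposited TPM 2 members were called lower, Tdo2 and Sds, and 2 higher, Gpt and Gpt2, while 220 of all genes were lower and 1268 higher, against 913 lower and 997 higher after rescaling. Without control_P10 replicate 1 the lower count was 1 (76 over all genes), without control_P10 replicate 2 it was 4 (186), without HKO_P10 replicate 1 it was 10 (733) and without HKO_P10 replicate 2, the library with Xist, it was 9 (266). The higher count was 1 without control_P10 replicate 1, control_P10 replicate 2 or HKO_P10 replicate 2. Gpt2 and Tdo2 were the 2 of 18 called members that passed in each of these fits.

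Markers of other cell types also differed at P10, in summed TPM on the deposited scale. The sums in HKO cells and in controls were 510 to 742 against 435 to 456 for 12 macrophage markers, 118 to 132 against 103 to 104 for 9 endothelial markers, and 137 to 169 against 65.0 to 78.2 for 9 cholangiocyte markers. The 6 erythroid markers summed to 483 to 2899 in HKO cells and 228 to 383 in controls, while the sums of 10 stellate cell markers and 8 lymphocyte and neutrophil markers overlapped. By limma 1 of 12 macrophage, 2 of 5 cholangiocyte and 0 of 6 erythroid markers tested were called higher, and 1 cholangiocyte marker was lower. Hepatocyte markers were lower for 5 of 10 (3 on the deposited TPM) and periportal genes for 5 of 14 (2 lower and 1 higher on the deposited TPM), against the 8.12% of all genes. The periportal list includes the members Sds, Hal and Gls2, all of which are among its lower genes here. The part of other cells in the members' values was not tested.

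The authors' deposited table for P10 has 21 of the 30 members lower and 2 higher, with 11.8% of its 19182 genes lower and 13.4% higher at the same threshold. Of the 18 members called by limma, 17 were called there in the same direction, and the sign was the same for all 30. In that table Gpt2 has a log2 fold change of 3.41 and Tdo2 one of -1.73.

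**Figure D2:**
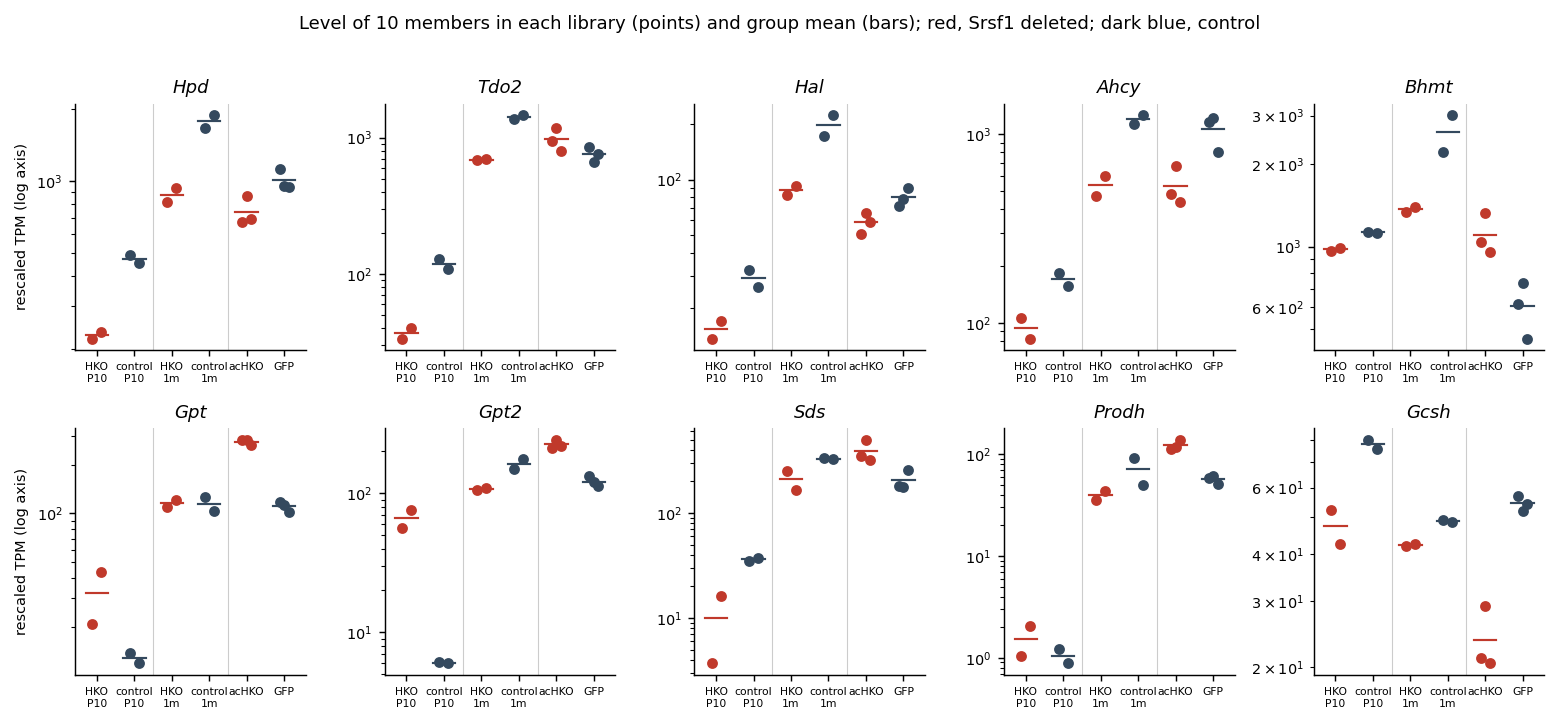
Rescaled TPM (log axis, a separate range for each gene) of 10 members in each of the 14 libraries (points) with group means (bars); HKO and acHKO libraries are red and their controls, to the right of each, dark blue. Gpt2 lies above its controls at P10 and in the acute model and below them at 1 month, and Ahcy lies below its controls in all 3 comparisons.

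At 1 month fewer members were called than at P10 on the rescaled TPM, and the methionine cycle held 3 of the 9 that fell. Against 7.60% of all genes called lower and 8.71% called higher, 9 of 30 members were lower and 0 higher. Limma's unadjusted p was under 0.05 for 16 members that were lower and 0 that were higher. The share of all genes at that unadjusted threshold was not counted, so these numbers have no background beside them. The median member changed by -0.44, and the range was -1.35 to 0.26. On the deposited TPM 4 members were lower and 0 higher at 1 month, and 2 were lower and 2 higher at P10. Of the 3 methionine cycle members, Ahcy alone was called there at 1 month. The difference in effect between the ages was tested itself, as given below, and passed for Gpt2 alone on the rescaled TPM.

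Hpd measured 819 and 930 rescaled TPM in HKO cells and 1658 and 1886 in controls (-1.02, SE 0.12, adjusted p = 0.00364). Tdo2 measured 683 and 696 in HKO cells and 1379 and 1470 in controls (-1.04, SE 0.13, adjusted p = 0.00402). Every HKO library was below every control for both genes, as at P10.

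Hal measured 82.9 and 92.4 rescaled TPM in HKO cells and 173 and 225 in controls (-1.16, SE 0.18, adjusted p = 0.00817). Ftcd measured 115 and 98.9 in HKO cells and 157 and 149 in controls (-0.52, SE 0.11, adjusted p = 0.0251). The opening and the closing step of histidine breakdown were thus called, while Uroc1 (-0.36) and Amdhd1 (-0.51) were not.

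Ahcy measured 472 and 597 rescaled TPM in HKO cells and 1131 and 1266 in controls (-1.17, SE 0.18, adjusted p = 0.00795). Bhmt, the most abundant member at this age, measured 1339 and 1392 in HKO cells and 2204 and 3019 in controls (-0.92, SE 0.16, adjusted p = 0.0128). Mat1a averaged 895 ± 49.8 in HKO cells and 1971 ± 876 in controls (SD, n = 2 each; -1.06, SE 0.28, adjusted p = 0.0459), with the controls far apart. The summed level of the 6 methionine cycle and transsulfuration genes was 3779 and 4173 in HKO cells and 6206 and 8486 rescaled TPM in controls, so both HKO libraries held less than either control.

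Gls2 measured 131 and 122 rescaled TPM in HKO cells and 181 in both controls (-0.52, SE 0.13, adjusted p = 0.0442). Gpt2 measured 105 and 108 in HKO cells and 148 and 175 in controls, lower where it had been higher at P10 (-0.59, SE 0.15, adjusted p = 0.0451). Gpt did not differ detectably (0.01, interval -0.73 to 0.76), and neither did Kmo (0.04, interval -0.35 to 0.43). Tat had the largest difference of any member, -1.35, with an interval of -2.29 to -0.41, and missed the threshold (adjusted p = 0.0626). The other 16 members not called ranged between -0.76 for Prodh and 0.26 for Amt and Aldh4a1.

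Other cells' markers moved at 1 month too. Their sums in HKO cells and in controls, as deposited TPM, were 56.8 to 158 against 16.5 to 20.5 for macrophages, 14.1 to 45.1 against 9.82 to 12.2 for endothelial cells, 13.3 to 36.8 against 7.74 to 8.47 for stellate cells and 24.7 to 38.3 against 5.15 to 5.45 for cholangiocytes. Limma called 4 of 12 macrophage markers higher (9 on the deposited TPM), 1 of 8 stellate cell markers and 1 of 5 cholangiocyte markers. Erythroid sums and lymphocyte and neutrophil sums overlapped, and Cldn4 and Cldn7 of the cholangiocyte list were at 0 in the controls. Hepatocyte markers were lower for 3 of 10 (1 on the deposited TPM) and periportal genes for 6 of 14 (3 on the deposited TPM), against the 7.60% of all genes. The lower periportal genes include the members Hal and Gls2. The part of other cells in the members' values was not tested.

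The 1 month count was 12 without control_1m replicate 1, 7 without control_1m replicate 2, and 5 without HKO_1m replicate 1 or HKO_1m replicate 2. Hpd, Tdo2, Hal and Ahcy were the 4 of 9 that passed in each of these fits, and they were also the 4 called on the deposited TPM, where the split was 4 lower and 0 higher. With quantile normalization 1 member was called. The authors' deposited table for 1 month has 12 members lower and 0 higher, with 4.53% of its 18177 genes lower and 8.97% higher, and it has the same direction for all 9 members called by limma.

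In the acute model the members split in both directions. Both alanine transaminases, Prodh, Sds and Bhmt were among those higher in acHKO cells, and 3 of 4 histidine genes, the late tryptophan genes Kynu and Haao, Gcsh and Ahcy were among those lower. Of 30 members 8 were lower (26.7%), against 18.6% of the 10327 genes tested, and 7 were higher (23.3%), against 19.8%. These shares are near the background, so they are no result about the members as a set, and the median member changed by -0.08.

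Gpt measured 285, 284 and 263 rescaled TPM in acHKO cells and 118, 113 and 102 in GFP cells (1.32, SE 0.10, adjusted p = 0.000878). Gpt2 measured 211, 243 and 218 in acHKO cells and 132, 119.6 and 112 in GFP cells (0.88, SE 0.11, adjusted p = 0.00254). Prodh measured 112, 118 and 139 in acHKO cells and 58.8, 61.6 and 50.5 in GFP cells (1.10, SE 0.13, adjusted p = 0.00194). For each of the 3 genes every acHKO library was above every GFP library. For Prodh most of the difference lies in transcripts other than its main coding transcript, as given below.

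Sds measured 349.6, 500.3 and 322 rescaled TPM in acHKO cells and 182, 178 and 257 in GFP cells (0.91, SE 0.22, adjusted p = 0.0195). Amt measured 19.6, 16.0 and 19.3 in acHKO cells and 12.7, 10.01 and 13.9 in GFP cells (0.55, SE 0.14, adjusted p = 0.0235). Gcsh, the partner of Amt in glycine cleavage, went the other way, with 21.2, 29.1 and 20.5 in acHKO cells and 57.0, 52.0 and 54.3 in GFP cells (-1.19, SE 0.14, adjusted p = 0.00226). None of the 3 genes overlapped between groups, and Gldc, the decarboxylase of the same complex, had 0.11 and was not called.

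Bhmt measured 1040.2, 1319.5 and 957 rescaled TPM in acHKO cells and 616, 737 and 462 in GFP cells (0.88, SE 0.22, adjusted p = 0.0203). Gnmt was called higher as well (0.41, adjusted p = 0.0438), and on the deposited TPM its sign turned (-0.03). Ahcy, between these enzymes in the cycle, fell by 1.00 (SE 0.24, adjusted p = 0.0184), with 479, 681 and 439 in acHKO cells and 1165, 1219 and 802 in GFP cells. Much of this fall lies in a short Ahcy transcript given below, and the main transcript's level overlapped between the groups. Mat1a (-0.30), Cbs (-0.08) and Cth (0.36) were not called, and the summed level of the 6 genes overlapped between the groups, at 3467 to 4523 in acHKO cells and 3306 to 4188 in GFP cells.

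Haao measured 124, 135 and 139.5 rescaled TPM in acHKO cells and 187, 177 and 189 in GFP cells (-0.47, SE 0.10, adjusted p = 0.0118). Kynu, the step before it, fell by 0.63, while Tdo2 (0.35) and Kmo (0.15) were not called. In the histidine route Uroc1 fell by 1.04 (SE 0.22, adjusted p = 0.0123), Amdhd1 by 0.54 and Hal by 0.45, and Ftcd (-0.36) was not called. The summed level of the histidine route was 251 ± 44.6 in acHKO cells and 366 ± 20.8 in GFP cells (SD, n = 3 each), with no overlap.

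The rest of the tyrosine route was not called: Tat had 0.56, Hpd -0.44 (adjusted p = 0.0657), Hgd -0.49 and Fah -0.26. Agxt fell by 0.60, and Got1 (0.04, interval -0.38 to 0.46) and Got2 (0.11) were not called. Gls2 (-0.08, interval -0.38 to 0.23) and Aldh4a1 (-0.17) were not called either.

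In the acute model the macrophage sums overlapped, at 8.21 to 52.9 deposited TPM in acHKO cells and 5.64 to 14.4 in GFP cells, and so did the endothelial, stellate cell and cholangiocyte sums. Erythroid markers summed to 8.25 to 12.4 in acHKO cells and 30.04 to 46.95 in GFP cells, and lymphocyte and neutrophil markers to 0.927 to 1.54 in acHKO cells and 0.146 to 0.414 in GFP cells. The cholangiocyte markers Cldn4 and Cldn7 were at 0 in GFP cells. Limma called 1 of 9 macrophage markers tested higher, and 6 were called higher on the deposited TPM. Of 10 hepatocyte markers 1 was lower and 1 higher (2 and 0 on the deposited TPM), and of 14 periportal genes 4 were lower and 2 higher (8 and 1 on the deposited TPM), against 18.6% and 19.8% of all genes. Among these periportal genes the member Hal was lower and the member Sds higher. The part of other cells in the members' values was not tested.

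**Figure D3:**
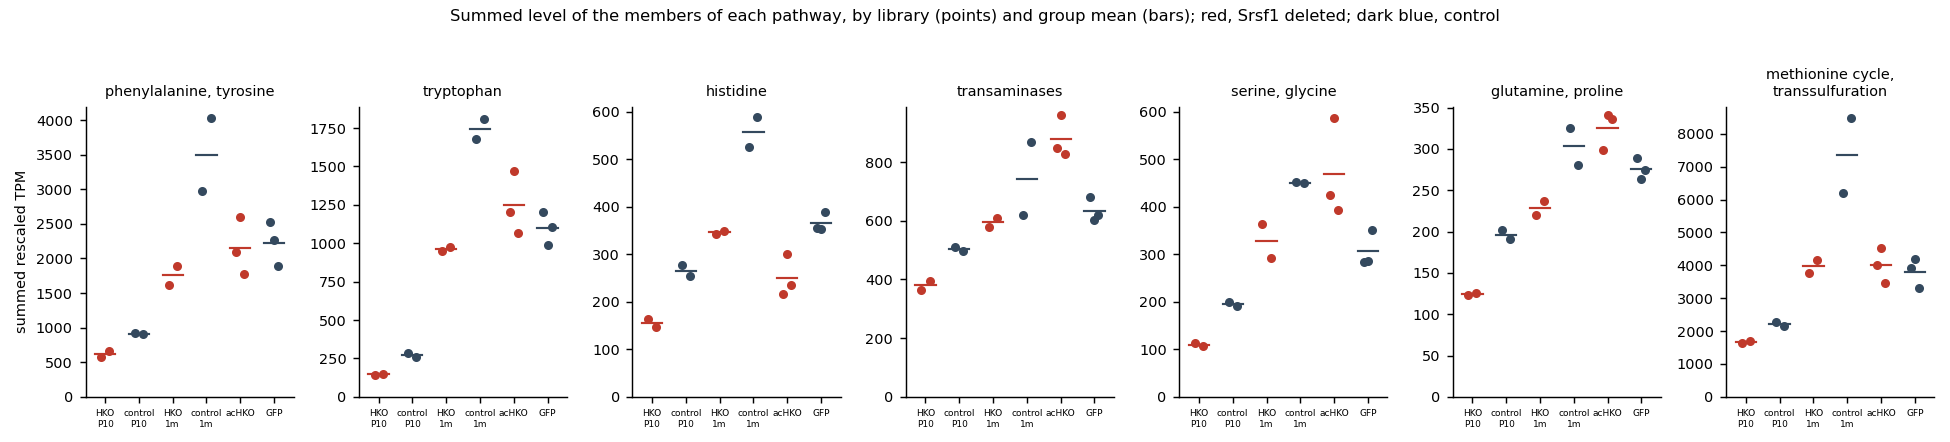
Summed rescaled TPM of the members of each of the 7 routes in each library (points) with group means (bars), on linear axes from 0; HKO and acHKO libraries are red and their controls, to the right of each, dark blue. The histidine sum is lower than in its controls in all 3 comparisons, and the transaminase sum is higher in all 3 acHKO libraries than in the GFP libraries, at 829 to 959.8 against 601 to 682.

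The direction of the acute split rested on the scaling more than on any single library. On the deposited TPM 14 members were lower and 2 higher, Gpt (0.88) and Prodh (0.66), while 3467 of all genes were lower and 591 higher. Quantile normalization gave 7 lower and 12 higher, with 2307 of all genes lower and 1837 higher. On the deposited TPM the mean transaminase sum was 629.8 in acHKO cells and 621 in GFP cells, nearly level, and the histidine sum 179 in acHKO cells and 362 in GFP cells. Leaving out libraries gave lower counts of 3 without acHKO_acute replicate 1 (1256 over all genes) or GFP_acute replicate 1 (1233). They were 4 without acHKO_acute replicate 3 (1359) or GFP_acute replicate 3 (1318). Without acHKO_acute replicate 2 the lower count was 12 (1797), and without GFP_acute replicate 2 it was 6 (1266). Higher counts were 4 without acHKO_acute replicate 1 (1423 over all genes), GFP_acute replicate 1 (1471) or GFP_acute replicate 2 (1472). They were 5 or 6 otherwise (1589 to 1843). Gpt, Gpt2, Prodh, Gcsh, Haao and Uroc1 passed in all 6 such fits. The authors' deposited table has 12 members lower and 5 higher, with 16.1% of its 21442 genes lower and 16.4% higher, and 13 of the 15 members called by limma are called there in the same direction.

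Across the 3 knockout comparisons Hal and Ahcy were the 2 members called lower in each (6.67%), against 1.37% of the 9927 genes tested in all 3, and none was called higher in each, against 1.55%. Of the 30 members 6 (20%) were lower at both HKO ages, against 2.48% of these genes, and 7 (23.3%) at P10 and in the acute model, against 3.57%. A further 7 members (23.3%) were called in no comparison, against 48.2%. Gpt2, Sds, Amt and Bhmt (13.3%) were called in opposite directions in different comparisons, against 2.56%. These patterns are those of the rescaled TPM. On the deposited TPM Tdo2 and Sds were the only members lower at P10, so neither Hal nor Ahcy was lower in each comparison. Nor were Gpt2, Sds, Amt and Bhmt called in opposite directions there. With each acute library left out in turn, Hal passed in 1 of 6 fits and Ahcy in 2 of 6. The P10 calls of both genes also depended on single libraries, as given above. With each P10 library left out, the P10 change was -1.03 to -0.73 for Hal and -1.03 to -0.68 for Ahcy. The counts of members lower at both HKO ages, and at P10 and in the acute model, rest on such P10 calls too. The members' changes correlated across the 30 genes with Pearson's r of 0.05 between P10 and 1 month, 0.45 between P10 and the acute model and 0.03 between 1 month and the acute model. Over all genes tested in both, r was 0.38, 0.34 and 0.42 for the same pairs. These values are given as a description over genes that are not independent replicates and from comparisons without a shared library.

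The differences between effects were tested as interactions. Between the HKO ages 1 member passed as lower at 1 month relative to P10, against 2.86% of all genes, and 0 passed as higher, against 3.36%. That member was Gpt2, whose effect was 3.83 lower at 1 month (SE 0.22, adjusted p = 0.00177). Among members with a positive difference 7 had an unadjusted limma p under 0.05 and 0 passed after adjustment. The share of all genes at the unadjusted threshold was not counted. In the knockouts themselves Gpt2 averaged 65.9 ± 13.4 at P10 and 107 ± 2.64 rescaled TPM at 1 month (SD, n = 2 each), while in controls it averaged 6.03 ± 0.0685 at P10 and 162 ± 19.3 at 1 month.

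Between the acute and the 1 month effect 7 members passed as higher in the acute model, against 8.77% of the 10990 genes tested, and 1 as lower, against 8.00%. The 7 were Tat (1.91), Prodh (1.86), Bhmt (1.80), Gpt2 (1.47), Tdo2 (1.39), Gpt (1.30) and Gnmt (0.92), and the 1 was Gcsh (-0.98). All but Tat and Gpt passed without any 1 library. On the deposited TPM Prodh, Bhmt and Gcsh passed. The models also differ in age, in the route of deletion and in the genotype of the controls, which cannot be told apart here.

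SRSF1 regulates splicing, and the deposited TPM are per transcript, so transcript usage was compared next. A member was called with a limma diffSplice F test adjusted p under 0.05 and a change of at least 10 percentage points in the share of 1 transcript. In the acute model 9 of the 13 members with at least 2 testable transcripts were called, and 41.9% of all genes tested were called. At 1 month 1 of 16 was called, against 2.12%, and at P10 0 of 16, against 1.11%, with 1 member at an unadjusted p under 0.05. The acute share of called members is thus given beside a background in which usage calls were common.

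Prodh (ENSMUSG00000003526.12, chr16:18060357-18090203, minus strand, GRCm38) had the largest change of share. Prodh-201, the coding transcript of 14 exons, made up 53.2, 49.2 and 41.8% of the gene's TPM in acHKO cells and 88.5, 88.5 and 86.7% in GFP cells (adjusted p = 1.059e-07 for the gene). Prodh-203 made up 22.8, 19.4 and 19.4% in acHKO cells and 0.302, 0.579 and 0.342% in GFP cells. Its level was 25.6, 22.9 and 27.0 rescaled TPM in acHKO cells and 0.178, 0.357 and 0.173 in GFP cells, so the groups were far apart in every library. This transcript lacks exon 9 of Prodh-201 (chr16:18077791-18077883), a coding exon of 93 bases, or 31 codons, whose length is a whole number of codons. Prodh-203 is annotated with 732 bases and Prodh-201 with 2386, so the level of Prodh-203 is an estimate for an incomplete model. The exon is shown because it is what separates Prodh-203 from Prodh-201 in this region. The exon is in capitals in the first sequence, with 30 bases of exon 8 before it and of exon 10 after it, and in the second the capitals are the 3 bases on either side of the junction that remains without it; both are from the GENCODE M21 transcripts, 5′ to 3′ on the transcript strand.
Prodh-201: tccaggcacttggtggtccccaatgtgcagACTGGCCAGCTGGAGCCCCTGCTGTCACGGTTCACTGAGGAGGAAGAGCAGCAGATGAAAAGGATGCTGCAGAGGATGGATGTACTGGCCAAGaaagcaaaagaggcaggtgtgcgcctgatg
Prodh-203: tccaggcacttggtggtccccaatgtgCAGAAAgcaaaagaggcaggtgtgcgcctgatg

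**Figure D4:**
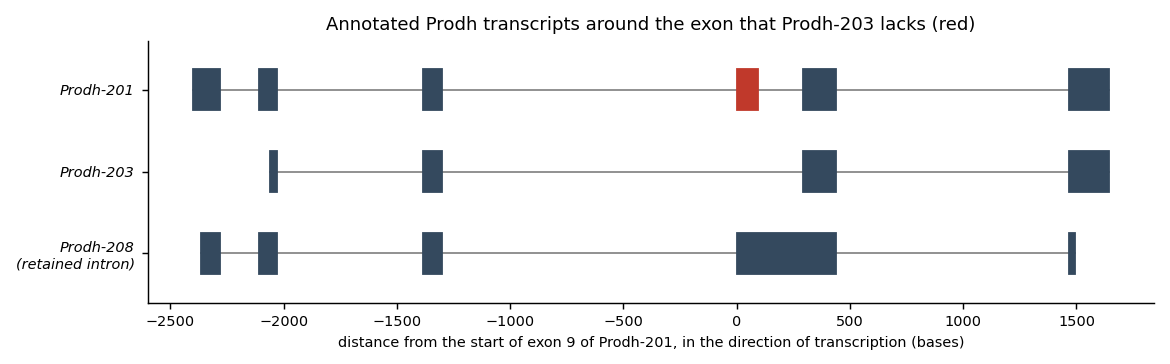
Exons (boxes) and introns (lines) of 3 annotated Prodh transcripts to scale, as the distance in bases from the start of exon 9 of Prodh-201 in the direction of transcription. The red box is the exon of 93 bases that Prodh-203 lacks, and Prodh-208 keeps the intron that follows it.

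Other Prodh transcripts changed as well. Prodh-208, which is annotated as a retained intron and keeps the intron after exon 9, made up 13.1, 10.2 and 17.3% in acHKO cells and 5.03, 5.33 and 5.09% in GFP cells. Prodh-205, which starts at another first exon, made up 6.64, 16.0 and 16.2% in acHKO cells and was listed at 0 in the GFP libraries, but it was present in both groups at 1 month. Prodh-203 was also the transcript behind the only call at 1 month, with 10.5 and 14.1% in HKO cells and 1.83 and 0.242% in controls (adjusted p = 0.0337). That call was lost on the deposited TPM, with transcripts of at least 10% of the gene, with a threshold of 20 points, and without HKO_1m replicate 1 or HKO_1m replicate 2, each of which gave 0 calls. At P10 its share was 4.94 and 15.9% in HKO cells and it was listed at 0 in controls, with Prodh itself at or below 2.06 rescaled TPM in all P10 libraries. The higher Prodh level in acHKO cells is therefore mostly that of transcripts other than Prodh-201, whose shares are given above.

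The letters of exon 9 were searched on the transcript strand for GGAGA and GAAGAA, purine-rich motifs known from SRSF1 binding, chosen after the data were seen. Neither was found in it, while 21.1% of the 2245 annotated exons of 93 bases hold GGAGA and 10.5% hold GAAGAA. This says only that these letters are not in this window.

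Ahcy (chr2:155059310-155074497, minus strand, GRCm38) shifted toward its main transcript. Ahcy-202, which lacks the first 36 bases of exon 3 (chr2:155067363-155067398), made up 2.14, 1.93 and 0.452% of the gene in acHKO cells and 29.1, 30.3 and 21.6% in GFP cells (adjusted p = 0.000232). In level it was 10.2, 13.1 and 1.99 rescaled TPM in acHKO cells and 339, 369 and 173 in GFP cells, without overlap. Ahcy-201 measured 452.5, 649.7 and 421 in acHKO cells and 818, 840.2 and 623 in GFP cells, and its groups overlapped in level. Much of the gene's lower level in acHKO cells is therefore that of Ahcy-202. Ahcy-202 is annotated with 341 bases and ends within exon 4, so its level too is an estimate for an incomplete model. The 36 bases of exon 3 that it lacks are in capitals, with 30 bases on either side, from the same source.
Ahcy-201: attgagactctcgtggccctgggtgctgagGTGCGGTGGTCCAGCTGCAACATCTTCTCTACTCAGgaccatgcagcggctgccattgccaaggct

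Kynu shifted away from a transcript with another end. Kynu-203, which ends in an extended exon 13 and lacks exon 14 of Kynu-201, made up 7.92, 4.94 and 10.9% in acHKO cells and 36.2, 33.7 and 36.3% in GFP cells (adjusted p = 1.348e-05). It measured 2.79, 2.24 and 3.51 rescaled TPM in acHKO cells and 22.6, 17.4 and 22.4 in GFP cells, whereas Kynu-201 measured 27.8, 35.6 and 25.4 in acHKO cells and 38.2, 32.3 and 36.8 in GFP cells. The gene's lower level in acHKO cells is therefore mostly that of Kynu-203, and the groups overlapped for Kynu-201.

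In 5 further called members a transcript without an annotated coding sequence took a larger share in acHKO cells. Sds-203, a retained intron form, made up 16.5, 18.3 and 22.6% in acHKO cells and 3.26, 5.39 and 6.54% in GFP cells. Gls2-207, also a retained intron form, made up 28.6, 35.3 and 20.7% in acHKO cells and 11.6, 11.7 and 13.4% in GFP cells. Ftcd-202, a further one, made up 30.4, 30.6 and 36.1% in acHKO cells and 16.3, 17.3 and 19.5% in GFP cells. The groups did not overlap in any of the 3, which were picked from members called for usage in these same libraries.

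Tdo2-203 averaged 31.2% in acHKO cells and 16.4% in GFP cells, and Hal-204 averaged 41.1% in acHKO cells and 30.2% in GFP cells; both are annotated as processed transcripts. In Mat1a the share moved between coding forms that differ in their 5′ exons, with Mat1a-201 at 63.3% in acHKO cells and 45.9% in GFP cells. Of the 4 tested members not called, Amt did not pass the F test, and Cbs, Gnmt and Uroc1 passed it with changes under 10 points. With a threshold of 20 points 5 of the 9 calls were left.

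**Figure D5:**
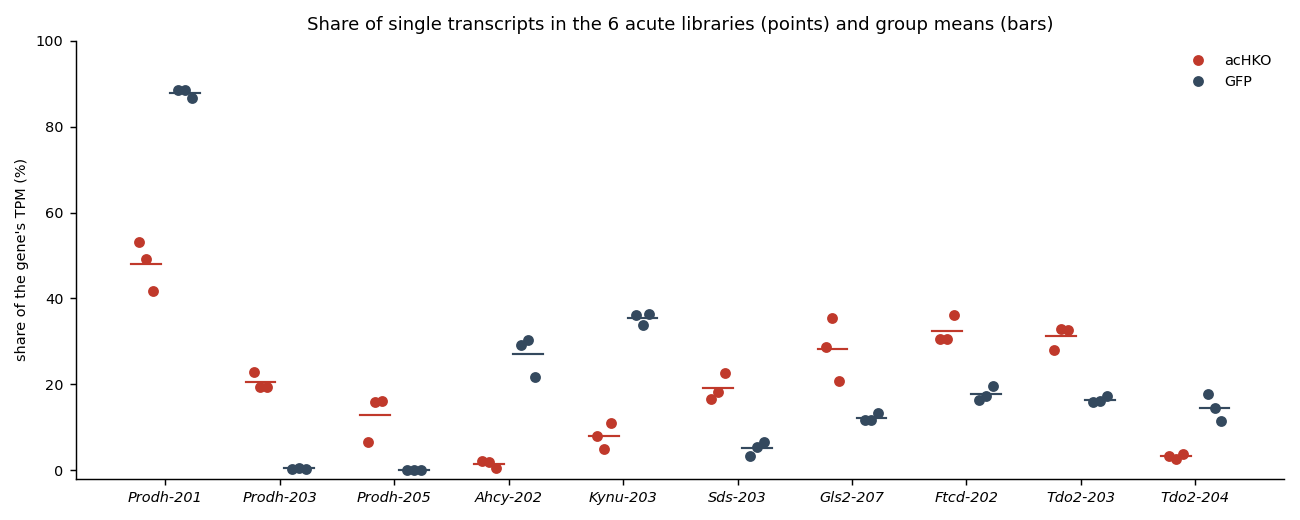
Share of the gene's TPM (percent, from 0 to 100) held by 10 transcripts of 7 members in the 3 acHKO libraries (red, left) and the 3 GFP libraries (dark blue, right), with group means as bars. Prodh-201 averages 48.0% in acHKO cells and 87.9% in GFP cells, and none of the 10 transcripts overlaps between the groups. The 10 were picked from members called for usage in these same libraries, so the lack of overlap is not a separate result.

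With age, most members were higher in 1 month controls than in P10 controls. The later group was higher for 21 of 30 members, against 22.8% of all genes called higher, and lower for 3, against 24.3%. The median member differed by 1.15 on the log2 scale. This comparison shares its control libraries with the HKO comparisons, so no overlap between them is counted.

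Prodh measured 92.2 and 49.3 rescaled TPM at 1 month and 1.21 and 0.882 at P10 (5.07, SE 0.32, adjusted p = 6.58e-05). Gpt2 measured 148 and 175 at 1 month and 6.08 and 5.98 at P10 (4.53), and Tdo2 measured 1379 and 1470 at 1 month and 128 and 108 at P10 (3.59). Tat (3.78) lay between Gpt2 and Tdo2, and Sds (3.15), Gpt (3.06), Ahcy (2.81), Hal (2.73) and Gnmt (2.29) came after Tdo2. The 3 members lower at 1 month were Amt (-1.07), Aldh4a1 (-0.98) and Gcsh (-0.66), which serve glycine cleavage (Amt, Gcsh) and the last step of proline breakdown (Aldh4a1). Fah, Uroc1, Amdhd1, Got1, Got2 and Agxt were not called.

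On the deposited TPM the age split was 12 higher and 5 lower, with 714 of all genes higher and 4480 lower, and Gldc, called higher at 0.38, turned to -0.12. The 2 age groups also differed in the RNA of other cells. All 12 macrophage markers were lower at 1 month, and their summed deposited level was 16.5 to 20.5 TPM at 1 month and 435 to 456 TPM at P10. Of 9 endothelial markers 7 were lower at 1 month, as were all 8 stellate cell markers tested, and the part of these cells in the members' values was not tested.

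Other genes of the same pathways, 123 of 127 listed symbols in the table, were counted with the same test. At P10 40 of 115 tested were lower and 12 higher, against 8.12% and 8.87% of all genes. At 1 month 13 of 115 were lower and 6 higher, against 7.60% and 8.71%, and in the acute model 28 of 109 were lower and 21 higher, against 18.6% and 19.8%. These counts depended on the scaling: on the deposited TPM 2 were lower and 14 higher at P10, 3 lower and 4 higher at 1 month, and 48 lower and 4 higher in the acute model, so the balance at P10 turned around. Of 23 genes of branched-chain and lysine breakdown 16 were lower and 0 higher at P10 after rescaling and 1 lower and 0 higher on the deposited TPM. The 16 include Ppm1k, the phosphatase that activates branched-chain ketoacid dehydrogenase (-1.62), Mccc2 of leucine breakdown (-0.75) and Gcdh of lysine breakdown (-0.92). The amino acid transporter genes Slc3a2 (1.03) and Slc16a10 (1.13) and the serine synthesis genes Psat1 (1.70) and Psph (0.90) were higher at P10.

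At 1 month the cystine transporter subunit Slc3a1 (-1.09), Cdo1, which opens cysteine oxidation (-1.18), and Bhmt2 (-0.73) were lower, and the amino acid transporter genes Slc1a4 (1.45) and Slc3a2 (1.05) were higher. In the acute model Gcat of threonine breakdown (-2.21) and Prodh2, which oxidises hydroxyproline (-1.55), were lower, and Ethe1 of sulfide oxidation (1.64), Agxt2 (1.16), Slc3a2 (1.32) and the mitochondrial serine hydroxymethyltransferase Shmt2 (0.85) were higher.

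Genes of the integrated stress response, a programme that Gpt2 is known to belong to in mammalian cells, were higher for 9 of 11 tested at P10, 4 of 11 at 1 month and 3 of 8 in the acute model, where 1 was lower. Glucocorticoid-induced genes were lower for 6 of 9 and higher for 1 at 1 month, where Tat stood at -1.35, and were lower for 2 and higher for 3 at P10. Of all genes 7.60% were lower and 8.71% higher at 1 month, and 8.12% lower and 8.87% higher at P10. On the deposited TPM 4 glucocorticoid-induced genes were lower and 1 higher at 1 month, and 1 was lower and 4 higher at P10. Clock genes were lower for 7 of 13 and higher for 1 at 1 month and were called for 0 of 13 at P10. On the deposited TPM 7 were lower and 1 higher at 1 month, and 1 was higher at P10. In the acute model 0 were lower and 1 higher, and on the deposited TPM 5 were lower and 1 higher. The labels give no hour of sampling, and the part of these programmes in the members' values was not tested.

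Some members share sequence with other genes, so their levels are less certain. Of the 31-base words in Ahcy's transcripts 71.4% also occur in another gene, the highest-sharing of which, Gm4737, reached at most 0.561 rescaled TPM. The share was 30.3% for Bhmt, 31% for Aldh4a1, 30.9% for Got2 and 24.6% for Sds, whose partner Plbd2 reached 22.3 rescaled TPM, and at most 8.72% for the other members.

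RefSeq promoter windows on GRCm38, mostly upstream of each start, were found for 24 of 30 members. The TATA box letters TATAAA were in 5 of them, Ftcd, Got2, Hal, Hgd and Tdo2, or 20.8%, against 13.6% of 32851 windows, on either strand. The glucocorticoid receptor motif TGTTCT was in 12.5% of the members' windows and 19.0% of all. These are matches of letters and not sites of binding.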

How the data were processed

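Per the labels' protocols, RNA of purified hepatocytes was made into stranded mRNA libraries. The submitters' processing notes name bcl2fastq 2.17.1.14, kallisto 0.46.0 and DESeq2 on GRCm38 (mm10) and do not say whether kallisto used strand. The authors deposited TPM per transcript for 14 libraries, and 3 gene tables that, per the file headers, hold a mean normalized count (a signal), a log2 fold change with its error, a test score (not used) and p-values.

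TPM were summed per gene and divided by median-ratio factors over the 14 libraries, because shares move with composition. Limma 3.58.1 (R 4.3.3; lmFit, eBayes with trend) was run on log2(rescaled TPM + 1), keeping genes that averaged 1 or more, and adjusted over all genes kept (Benjamini-Hochberg). The HKO fit used 8 libraries and the acute fit 6, each with 4 residual degrees of freedom, and the interaction with the acute effect used all 14. Usage used diffSplice on transcripts of at least 1 rescaled TPM and 5% of their gene. Scripts were tested on simulated data. Figures were drawn with Python 3.11.15.

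Replicate numbers were not taken to pair samples. Same-number deviations correlated at 0.0135 (P10), 0.229 (1 month) and 0.00825 to 0.276 (acute). Different-number deviations correlated at -0.327 to 0.072 in the acute model. With 2 libraries a group, those at P10 and 1 month are the same-number values with the sign turned, by construction. These values do not settle whether the numbers pair samples.

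Per-library values are given for up to 8 members a comparison, those with the smallest adjusted p or called in opposite directions. Those of Ahcy are given in addition in the acute model. Up to 4 other pathway genes a direction are named. Members and lists were chosen with earlier results of these data known. Results for a few genes outside the members are not reported here. Deposited TPM, quantile normalization, pseudocount 0.1, no filter, coding transcripts only, no trend, a replicate block, other libraries in the fit and leaving out each library were tried.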

Additional observations from a re-analysis of the deposited data

Results flagged for a closer look

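The difference between knockout and control was unlike between models or ages for 8 members by limma's interaction test, adjusted over all genes tested. For the acute minus the 1 month effect 7 were higher and 1 lower, against 8.77% and 8.00% of all genes. On the deposited TPM Prodh, Bhmt and Gcsh passed. Between the HKO ages 1 was lower, against 2.86% of all genes. The models also differ in age, in the route of deletion and in the genotype of the controls, which cannot be told apart here. Relative to the 1 month HKO effect, the acute effect on the log2 scale was higher by 1.91 for Tat (SE 0.55, adjusted p = 0.0387), 1.86 for Prodh (SE 0.35, adjusted p = 0.00619), 1.80 for Bhmt (SE 0.29, adjusted p = 0.00325) and 1.47 for Gpt2 (SE 0.19, adjusted p = 0.000839). It was also higher by 1.39 for Tdo2 (SE 0.24, adjusted p = 0.00388), 1.30 for Gpt (SE 0.33, adjusted p = 0.0227) and 0.92 for Gnmt (SE 0.18, adjusted p = 0.00771).

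Gcsh differed the other way, with an acute effect lower than the 1 month effect (-0.98, SE 0.20, adjusted p = 0.00843). Its level was 20.5 to 29.1 rescaled TPM in acHKO cells and 52.0 to 57.0 in GFP cells, and 41.9 to 42.4 in HKO cells and 48.7 to 49.2 in controls at 1 month.

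Gpt2 had a 1 month effect lower than its P10 effect (-3.83, SE 0.22, adjusted p = 0.00177).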

How the results depend on the processing

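After rescaling, 16 members were lower and 2 higher at P10, 9 and 0 at 1 month, 8 and 7 in the acute model, and 3 and 21 with age. The deposited TPM gave 2 lower at P10, 4 lower at 1 month, 14 lower and 2 higher in the acute model, 5 lower and 12 higher with age, 2 lower for the HKO age difference and 2 higher for the acute minus 1 month difference; on it Gnmt in the acute model (-0.0275) and Gldc with age (-0.122) changed sign. Quantile normalization gave 1 lower at 1 month, 12 higher in the acute model, 5 lower with age, 4 higher for the HKO age difference and 2 lower for the acute difference. Without a filter on low values there were 8 lower and 1 higher at P10, 4 lower at 1 month, and 5 lower and 3 higher in the acute model; more genes enter that adjustment. With only the 4 libraries of an age there were 1 higher at P10 and 3 lower at 1 month. Coding transcripts only gave 2 lower and 3 higher for the HKO age difference.

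Leaving out each library gave 1 to 10 lower and 1 to 2 higher at P10, 5 to 12 lower at 1 month, 3 to 12 lower and 4 to 6 higher in the acute model, 3 to 4 lower and 20 to 22 higher with age, 1 to 3 lower and 0 to 1 higher for the HKO age difference, and 1 to 2 lower and 5 to 8 higher for the acute difference. Usage gave 0 to 2 calls at 1 month and 8 to 9 in the acute model. A lone sample was assumed to vary like the other groups.

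For usage, 20 points gave 0 calls at 1 month and 5 in the acute model, and 0 calls at 1 month came from transcripts of at least 10% and from the deposited TPM. The replicate block gave 18 lower and 2 higher at P10, 9 and 0 at 1 month, 8 and 8 in the acute model, 1 and 7 for the acute difference, and 2 lower and 1 higher for the HKO age difference; it could not be fitted with age, where the numbers do not cross the groups. Except where a setting's construction shows it, the cause of these moves was not tested. Depth is unknown, so no limit for low levels can be given.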
